A study of Mus musculus with 6 samples.

Results

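Hyaluronan is a long sugar polymer of the extracellular matrix, and 9 mouse genes that make it, break it down or bind it were followed in day 3 skin wounds. They were the synthases Has1, Has2 and Has3, the hyaluronidases Hyal1 and Hyal2, the receptor Cd44, the hyaluronan-modifying protein Tnfaip6 (TSG-6), the matrix proteoglycan Vcan (versican) and the binding protein Hmmr (RHAMM). A gene was found by array probes whose RefSeq accession belongs to its symbol. All 9 genes were measured, by 16 of the 55645 probes with values on every array, and they stand among 16411 genes tested.

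RNA came from 3 FoxO1 +/- arrays and 3 wild-type (WT) arrays, hybridised in 1 colour to Agilent mouse arrays. FoxO1 +/- mice are heterozygous for Foxo1, a forkhead transcription factor, and WT mice carry both copies. All were male and of strain C57/BL6, all were wounded, and their age is not given in the labels. Each mouse received 4 full-thickness wounds in the back skin from a 4 mm punch, and tissue was taken with a 6 mm punch on day 3, so the sample includes a rim of skin around the wound. The labels do not say how the wounds of a mouse were pooled or which part of Foxo1 is disrupted, and p-values measure only the spread between these arrays.

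Hyaluronan is made at the cell surface, where a synthase joins 2 activated sugars, UDP-glucuronic acid and UDP-N-acetylglucosamine, and pushes the growing chain out of the cell. Hyaluronidases and cell-surface partners cut the chain and carry it into the cell for degradation. In skin wounds hyaluronan is known as a component of the early provisional matrix, in which versican and TSG-6 organise it and CD44 ties cells to it.

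The promoters of 7 of the 9 genes were in the RefSeq promoter table (build GRCm38.p6), which gives 300 bases per start site. The commonest window held 250 bases before the RefSeq gene start and 50 after it, in 19827 of 32851 windows compared. The placement was not examined for these 7 promoters. Because the mice differ in a forkhead factor, 4 of these promoters are shown with the letters of forkhead and other motifs in capitals. The motifs, sought on both strands, were the forkhead sequence TGTTTAC and its core TGTTT, the cAMP response element TGACGTCA, the AP-1 site TGANTCA, the CCAAT box CCAAT and the cell cycle element TTTGAA. The core lies within the longer forkhead sequence. Has1 is on chr17:17855139-17855438 (minus strand), Hyal2 on chr9:107568913-107569212 (plus strand), Tnfaip6 on chr2:52037863-52038162 (plus strand) and Hmmr on chr11:40733388-40733687 (minus strand). Each is written 5′ to 3′ along the gene's strand.
Has1: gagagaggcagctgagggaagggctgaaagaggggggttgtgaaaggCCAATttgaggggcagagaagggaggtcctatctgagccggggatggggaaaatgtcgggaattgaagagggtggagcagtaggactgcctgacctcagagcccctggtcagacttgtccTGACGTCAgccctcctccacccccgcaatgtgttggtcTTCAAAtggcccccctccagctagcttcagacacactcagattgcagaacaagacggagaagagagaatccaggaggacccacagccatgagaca
Hyal2: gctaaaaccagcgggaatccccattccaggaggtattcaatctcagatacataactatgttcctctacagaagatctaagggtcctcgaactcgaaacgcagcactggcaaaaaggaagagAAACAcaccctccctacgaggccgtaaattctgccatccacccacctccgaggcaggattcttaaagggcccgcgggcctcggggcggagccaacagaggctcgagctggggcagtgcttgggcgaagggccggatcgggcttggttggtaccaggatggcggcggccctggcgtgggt
Tnfaip6: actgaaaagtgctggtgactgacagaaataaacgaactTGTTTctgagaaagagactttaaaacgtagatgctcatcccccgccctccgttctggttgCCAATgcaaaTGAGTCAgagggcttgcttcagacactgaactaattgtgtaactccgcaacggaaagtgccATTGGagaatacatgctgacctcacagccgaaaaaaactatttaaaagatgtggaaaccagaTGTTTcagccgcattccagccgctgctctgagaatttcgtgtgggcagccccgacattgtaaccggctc
Hmmr: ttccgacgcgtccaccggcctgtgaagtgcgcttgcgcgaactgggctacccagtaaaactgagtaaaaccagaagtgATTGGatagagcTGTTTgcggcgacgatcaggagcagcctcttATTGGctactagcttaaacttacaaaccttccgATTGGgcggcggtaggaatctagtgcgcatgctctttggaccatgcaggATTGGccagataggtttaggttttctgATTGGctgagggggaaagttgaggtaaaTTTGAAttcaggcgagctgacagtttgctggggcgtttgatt

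The full forkhead sequence was in 0 of the 7 promoters, and 3.65% of the 32851 promoters in the table hold it. Its core was in 5 of the 7 (Hyal1, Hyal2, Tnfaip6, Vcan and Hmmr), beside 50.5% of all promoters. The Has1 promoter held the cAMP response element, found in 1.79% of all promoters, and the Tnfaip6 promoter held the AP-1 site, found in 7.81%. CCAAT boxes, present in 37.4% of all promoters, were in Has1, Hyal1, Tnfaip6, Vcan and Hmmr, and the Hmmr promoter held 5 of them. The cell cycle element was in Has1 and Hmmr and in 17.9% of all promoters. Such matches describe the letters and are neither sites nor causes.

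Levels below are log2 processed signals relative to the 75th percentile of the same array, so a level of 1 is a signal 1 doubling above that percentile. Levels of different probes are not comparable with each other. The 75th percentile lay at signals of 899 to 1118 on the FoxO1 +/- arrays and 1150 to 1299 on the WT arrays, and no spot was saturated. Between 64.3% and 71.3% of spots were well above background on the FoxO1 +/- arrays, against 71.3% to 71.9% on the WT arrays. Foxo1 stood at 0.38, 0.50 and 0.30 on the FoxO1 +/- arrays, against 1.31, 1.04 and 1.51 on the WT arrays at one probe, and at 1.54, 1.69 and 1.49 on the FoxO1 +/- arrays, against 2.04, 1.81 and 2.32 on the WT arrays at the other. It was lower in FoxO1 +/- wounds at both of its probes, by 0.89 and 0.48 on the log2 scale, with no overlap between the genotypes at either (exact permutation p = 0.1 each, the smallest that 3 against 3 arrays allow). Neither difference passed after adjustment over all probes (limma adjusted p = 0.190 and 0.547), and the place of these probes relative to the disrupted part was not examined. All 10 fibroblast markers and all 10 keratinocyte markers were well above background on all arrays. Hair follicle markers summed to 1.42 to 2.03 in linear signal relative to the 75th percentile on the FoxO1 +/- arrays, against 57.6 on WT replicate 1 and 2.14 and 2.30 on the other WT arrays.

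Hyaluronan gene expression did not differ detectably between FoxO1 +/- and WT wounds. None of the 9 genes passed a limma adjusted p of 0.05, a threshold passed by 1 of all 16411 genes (0.00609%). None had an unadjusted p under 0.05 either, beside 6.25% of all genes (3.42% higher and 2.83% lower in FoxO1 +/- wounds). The genotypes overlapped for all 9 genes, whereas 11.5% of all genes showed no overlap. Mean levels were higher in FoxO1 +/- wounds for Has2, Hyal1 and Hyal2 and lower for the other 6, with a median log2 difference of -0.06 beside 0.01 over all genes tested. In bulk wound tissue, fewer cells of a type and less RNA per cell cannot be told apart.

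**Figure D1:**
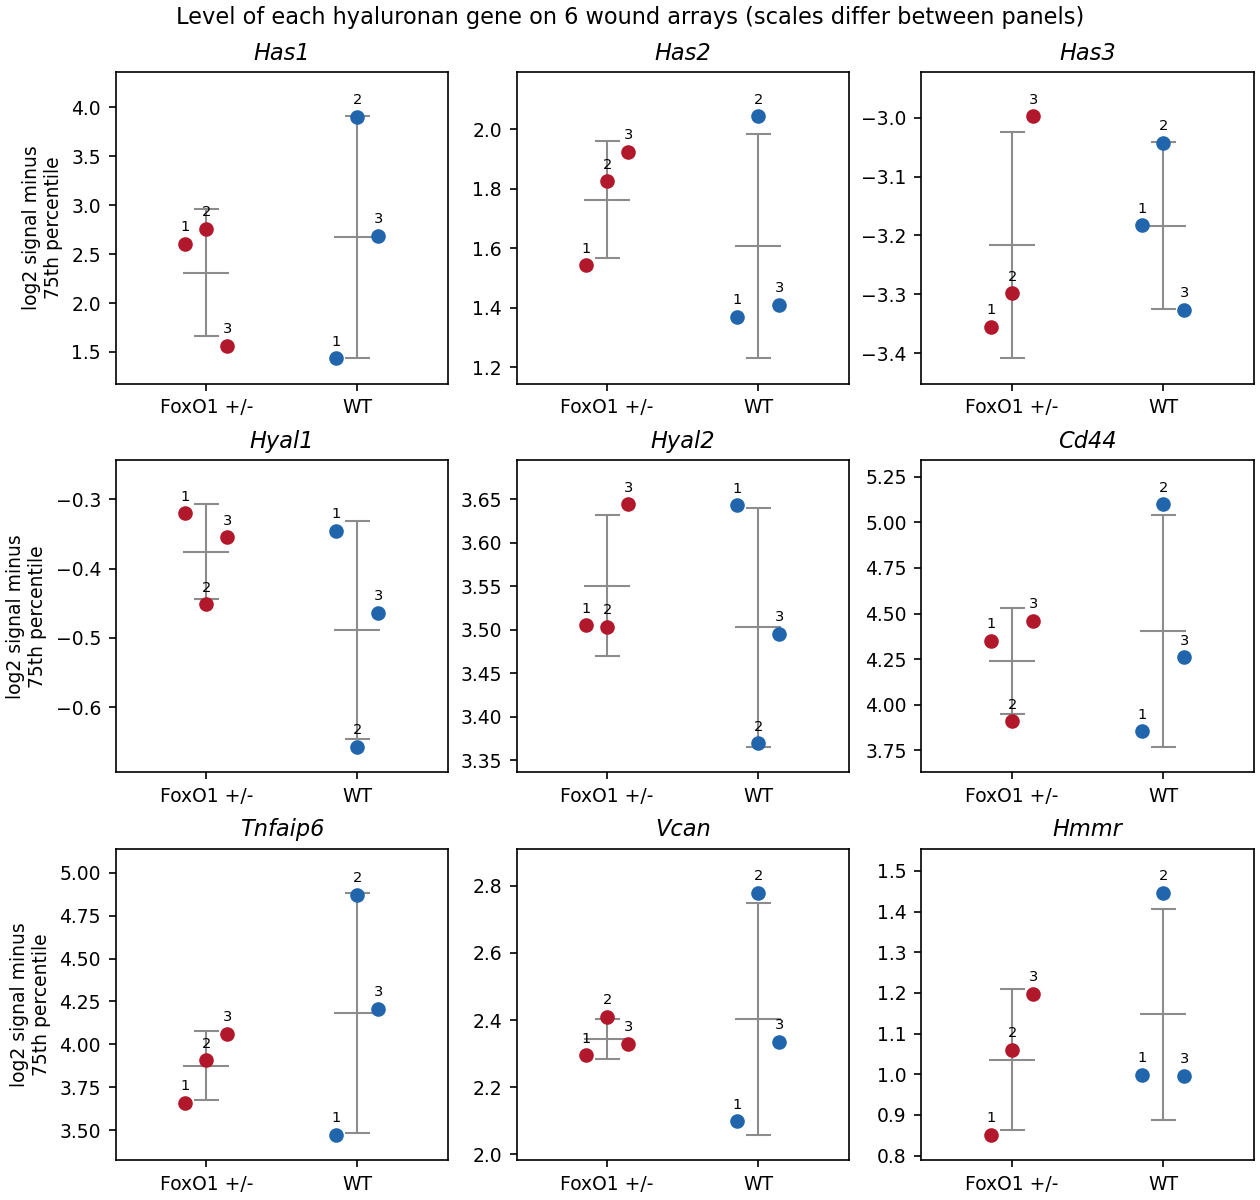
Levels of the 9 hyaluronan genes on each array (log2 signal relative to the array's 75th percentile), with FoxO1 +/- on the left and WT on the right of each panel, arrays numbered by replicate, and the mean with its SD. The genotypes overlap in all 9 panels, and WT replicate 2 is the top point for Has1, Has2, Cd44, Tnfaip6, Vcan and Hmmr.

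**Figure D2:**
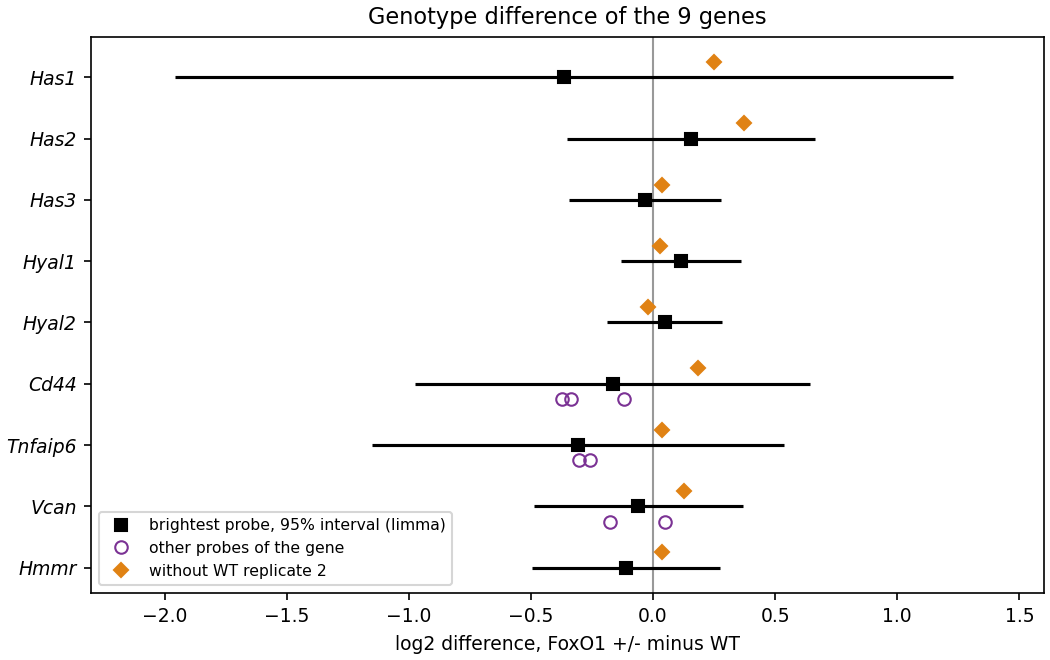
Log2 difference of each hyaluronan gene, FoxO1 +/- minus WT, with its 95% interval from limma (3 arrays per genotype). Every interval includes 0, and that of Has1 is the widest of the 9, from -1.96 to 1.23.

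Has1, a synthase known to be inducible by inflammatory signals, was the most variable of the hyaluronan genes. It stood at 2.61, 2.76 and 1.57 on the FoxO1 +/- arrays, against 1.43, 3.90 and 2.69 on the WT arrays. WT replicate 2 was high, while WT replicate 1 and FoxO1 +/- replicate 3 were low, so each genotype had low and middle arrays. The highest and lowest WT arrays bracketed all FoxO1 +/- arrays, a 5.53-fold span. Its level averaged 2.31 ± 0.65 in FoxO1 +/- wounds and 2.67 ± 1.23 in WT wounds (SD, n = 3 each), which differ by -0.36 in log2 units (SE 0.65; adjusted p = 0.990 in limma). The SD within genotypes was 0.99, and 0.622% of all genes tested had a larger one.

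Has2, the main synthase of dermal fibroblasts, stood at 1.54, 1.83 and 1.92 on the FoxO1 +/- arrays, against 1.37, 2.04 and 1.41 on the WT arrays. All FoxO1 +/- arrays lay above WT replicates 1 and 3 and below WT replicate 2. The log2 difference was 0.16 (SE 0.21, 95% interval -0.35 to 0.66, limma adjusted p = 0.977). Without WT replicate 2 it was 0.37, with an unadjusted p of 0.0362 and an adjusted p of 0.488 in limma, and 9.1% of all genes then had an unadjusted p under 0.05.

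Has3, the third synthase, stood at -3.35, -3.30 and -2.998 on the FoxO1 +/- arrays, against -3.18, -3.04 and -3.33 on the WT arrays. The arrays of both genotypes were interleaved over a 1.28-fold span. Its log2 difference between genotypes was -0.03 (SE 0.13, 95% interval -0.34 to 0.28, limma adjusted p = 0.995).

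The 8 genes of a list on the supply of hyaluronan precursors, from glucose phosphates to both UDP-sugars, also gave 0 adjusted and 0 unadjusted calls. The list runs through Ugdh, which makes UDP-glucuronic acid, and through Uap1 and Gfpt2 of the hexosamine pathway. In FoxO1 +/- wounds 3 of the 8 had the higher mean and 5 the lower, and their log2 differences had a median of -0.08. Ugdh stood at 4.51, 4.76 and 4.75 on the FoxO1 +/- arrays, against 4.66, 5.38 and 4.67 on the WT arrays, a log2 difference of -0.23 (limma adjusted p = 0.939). Nagk, a kinase that salvages N-acetylglucosamine, had a log2 difference of 0.11 (limma adjusted p = 0.900). WT replicate 2 held the highest level for 7 of these 8 genes.

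Breakdown genes varied least. Hyal1, a lysosomal hyaluronidase, stood at -0.32, -0.45 and -0.35 on the FoxO1 +/- arrays, against -0.34, -0.66 and -0.46 on the WT arrays. WT replicate 2 was the low array, and the others lay close together. The log2 difference was 0.11 (SE 0.10, 95% interval -0.13 to 0.36, limma adjusted p = 0.934). Hyal2, a membrane-anchored hyaluronidase, stood at 3.51, 3.50 and 3.64 on the FoxO1 +/- arrays, against 3.64, 3.37 and 3.50 on the WT arrays. Its whole span was 1.21-fold, again with WT replicate 2 lowest. FoxO1 +/- minus WT gave 0.05 in log2 units (SE 0.10, 95% interval -0.19 to 0.28, limma adjusted p = 0.992).

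Of 10 other genes of hyaluronan breakdown, 6 were measured, and Hyal3, Hyal4, Hyal5 and Spam1 did not pass the filter on dim probes. None of the 6 had an unadjusted p under 0.05, and 4 had the higher mean in FoxO1 +/- wounds. Hexa, a subunit of the lysosomal hexosaminidases, had a log2 difference of 0.20 (limma adjusted p = 0.845). Gusb, the lysosomal glucuronidase, had a log2 difference of 0.16 (limma adjusted p = 0.887). Without FoxO1 +/- replicate 2 these were 0.13 for Hexa and 0.10 for Gusb. Without FoxO1 +/- replicate 3 they were 0.29 for Hexa (limma unadjusted p = 0.0119, adjusted p = 0.713) and 0.25 for Gusb (limma unadjusted p = 0.0362, adjusted p = 0.803). In that fit 1003 of 16411 genes had an unadjusted p under 0.05. Both enzymes remove the end sugars of hyaluronan fragments.

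Cd44, the main cell-surface hyaluronan receptor, stood at 4.35, 3.91 and 4.46 on the FoxO1 +/- arrays, against 3.86, 5.10 and 4.26 on the WT arrays at its brightest probe. WT replicate 2 was high and WT replicate 1 low, with the FoxO1 +/- arrays between them. FoxO1 +/- minus WT gave -0.16 in log2 units (SE 0.33, 95% interval -0.97 to 0.64, limma adjusted p = 0.992). The other 3 Cd44 probes gave log2 differences of -0.12, -0.34 and -0.37, and WT replicate 2 was the highest array at all 4 probes. Cd44 transcripts are alternatively spliced, and which exons each probe reads was not examined.

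Tnfaip6 encodes TSG-6, which transfers protein heavy chains onto hyaluronan. It stood at 3.66, 3.91 and 4.06 on the FoxO1 +/- arrays, against 3.47, 4.87 and 4.21 on the WT arrays. The FoxO1 +/- arrays lay together between WT replicate 1 and the other WT arrays. The level averaged 3.88 ± 0.20 in FoxO1 +/- wounds and 4.18 ± 0.70 in WT wounds (SD, n = 3 each), which differ by -0.31 in log2 units (SE 0.35; adjusted p = 0.962 in limma). Its other probes gave -0.30 and -0.26, and all 3 probes put the arrays in the same order. Without WT replicate 1 the log2 difference was -0.66, with an unadjusted p of 0.0351 and an adjusted p of 0.877 in limma, and 5.53% of all genes then had an unadjusted p under 0.05.

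Vcan, a large proteoglycan of the provisional matrix, stood at 2.29, 2.41 and 2.33 on the FoxO1 +/- arrays, against 2.10, 2.78 and 2.33 on the WT arrays. The FoxO1 +/- arrays fell within a narrow band inside the WT range. The log2 difference was -0.06 (SE 0.18, 95% interval -0.49 to 0.37, limma adjusted p = 0.995), and its other probes gave -0.18 and 0.05. The probe that gave 0.05 was dim, with signals of 44.2 to 79.6, though well above background on every array. Among 6 measured proteases that can cut versican, 0 had an unadjusted p under 0.05. Adamts1 had a log2 difference of -0.36 (limma adjusted p = 0.826) and Adamts5 of -0.32 (limma adjusted p = 0.818). Adamts5 stood at 0.15, 0.22 and 0.23 on the FoxO1 +/- arrays, against 0.38, 0.81 and 0.36 on the WT arrays, the only 1 of the 6 without overlap between genotypes, beside 11.5% of all genes. Without WT replicate 2 these differences were -0.22 for Adamts1 and -0.17 for Adamts5.

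Hmmr encodes RHAMM, which binds hyaluronan and also works at the mitotic spindle. It stood at 0.85, 1.06 and 1.20 on the FoxO1 +/- arrays, against 1.00, 1.45 and 1.00 on the WT arrays. The genotypes were interleaved apart from WT replicate 2, the highest array. Between genotypes it differed by -0.11 in log2 units (SE 0.16, 95% interval -0.50 to 0.27, limma adjusted p = 0.980). Of 13 measured mitotic partners and cell cycle genes, 12 had the lower mean in FoxO1 +/- wounds, their differences had a median of -0.06, and 0 had an unadjusted p under 0.05. Bub1b had a log2 difference of -0.18 (limma adjusted p = 0.925) and Kif11 of -0.10 (limma adjusted p = 0.952). With 1 array left out they ran from -0.29 to -0.06 for Bub1b and from -0.17 to -0.02 for Kif11. FoxO1 +/- replicate 1 held the lowest level for 11 of the 13, as it did for Hmmr.

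Among 21 measured genes of other hyaluronan binding and cross-linking proteins, 14 had the higher mean in FoxO1 +/- wounds, and the median log2 difference was 0.10. None passed the adjusted threshold, and 4 of the 21 had an unadjusted p under 0.05, all with the higher mean in FoxO1 +/- wounds, beside 3.42% of all genes called higher. The genotypes did not overlap for 5 genes higher in FoxO1 +/- wounds (Ptx3, Stab1, Tlr2, Itih4 and Habp4) and 1 lower (Hapln3), beside 11.5% of all genes. These unadjusted calls depend on the setting. Slide row as a block leaves FoxO1 +/- replicate 1 alone against the WT arrays, so that fit cannot decide whether a call holds. The log2 differences were then 1.29 for Ptx3, 0.15 for Stab1, 0.44 for Tlr2 and 0.33 for Itih4. Stab1 lost its unadjusted call with quantile normalization, median scaling and a replicate block, and Tlr2 with a replicate block. Each of the 4 lost it in at least 2 of the 6 fits with an array left out, Ptx3 without FoxO1 +/- replicate 1 and without WT replicate 3. Ptx3, a pentraxin that cross-links hyaluronan together with TSG-6 and its heavy chains, stood at 3.18, 3.29 and 2.20 on the FoxO1 +/- arrays, against 1.79, 2.14 and 1.72 on the WT arrays. The genotypes did not overlap, although FoxO1 +/- replicate 3 lay close to WT replicate 2. The log2 difference was 1.01 (SE 0.30, limma unadjusted p = 0.0158, adjusted p = 0.650). Stab1, a scavenger receptor of the stabilin family, had a log2 difference of 0.33 (limma adjusted p = 0.782). Tlr2, an innate immune receptor reported to sense hyaluronan fragments, had a log2 difference of 0.40 (limma adjusted p = 0.786), and its highest WT array equalled its lowest FoxO1 +/- array to 2 decimals. Itih4, of the inter-alpha-inhibitor heavy chain family, had a log2 difference of 0.43 (limma adjusted p = 0.739). Beyond these 4, Habp4 had a log2 difference of 0.17 (limma adjusted p = 0.800) and Hapln3, a link protein, of -0.21 (limma adjusted p = 0.820). Of 8 measured macrophage and monocyte markers, whose cells can carry Stab1 and Tlr2, 7 had the higher mean in FoxO1 +/- wounds and Ccr2 the lower. Only Lyz2 had an unadjusted limma p under 0.05 (log2 difference 0.25, adjusted p = 0.798). Csf1r and Msr1 did not overlap between genotypes, beside 11.5% of all genes. The 8 markers summed to 382, 367 and 379 on the FoxO1 +/- arrays, against 316, 402 and 345 on the WT arrays, so the genotypes overlapped. Cd14 varied most on the WT arrays. Without it, the other 7 summed to 301, 301 and 291 on the FoxO1 +/- arrays, against 276, 273 and 272 on the WT arrays. Cd14 was dropped after the data were seen, so the lack of overlap without it cannot decide whether the genotypes differ. All 9 measured endothelial and lymphatic markers had the higher mean in FoxO1 +/- wounds. Of these, 2 had an unadjusted limma p under 0.05 (Cdh5 and Egfl7), beside 3.42% of all genes called higher. Cdh5, Kdr and Egfl7, 3 of the 9, did not overlap between genotypes, beside 11.5% of all genes. The 9 markers summed to 91.4, 97.1 and 107.3 on the FoxO1 +/- arrays, against 83.9, 96.0 and 85.7 on the WT arrays. Pdpn weighed most in these sums and was highest on WT replicate 2 (level 5.52). The part of these cells in the values of the binding genes was not tested.

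Ligands and partners of Cd44 were split evenly, 5 of 10 higher and 5 lower in FoxO1 +/- wounds, their differences had a median of 0.02, and 0 had an unadjusted p under 0.05. Mmp14, a membrane metalloproteinase, had a log2 difference of 0.21 (limma adjusted p = 0.863). Fn1, fibronectin, had a log2 difference of 0.26 (limma adjusted p = 0.868). With 1 array left out these were as low as 0.11 for Mmp14, without FoxO1 +/- replicate 2, and 0.14 for Fn1, without FoxO1 +/- replicate 3.

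**Figure D3:**
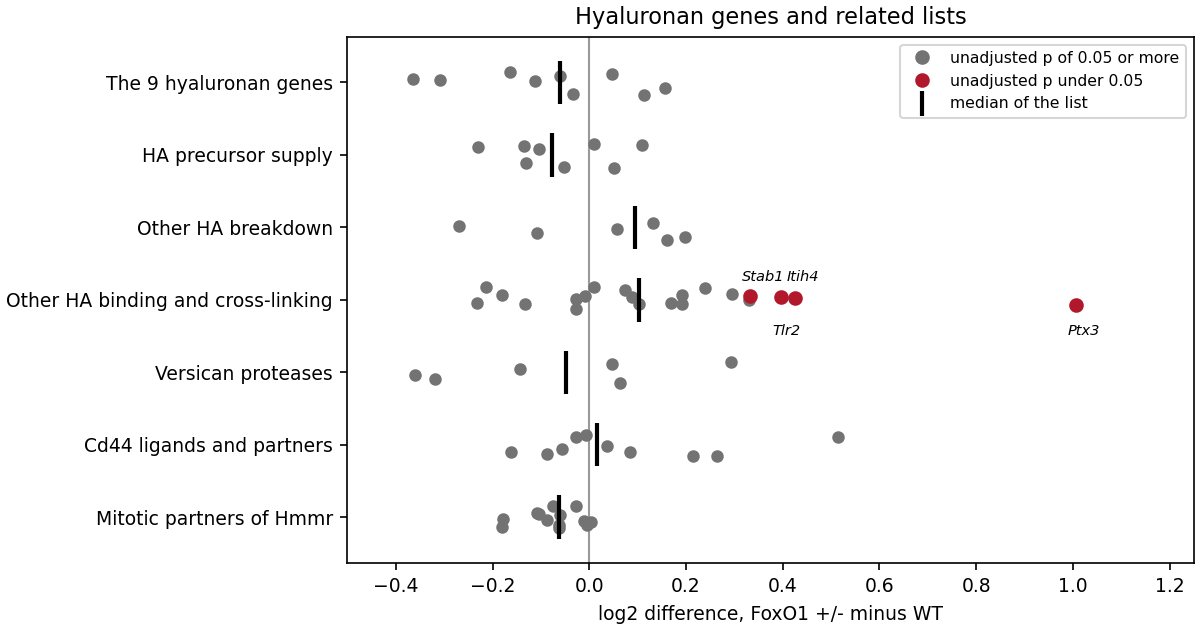
Log2 differences, FoxO1 +/- minus WT, of the 9 hyaluronan genes and of 6 related gene lists (HA, hyaluronan), with 1 point per gene and a bar at each list's median. The 4 named points in the binding list (Ptx3, Itih4, Tlr2 and Stab1) are the ones with an unadjusted limma p under 0.05, and none of the points passed the adjusted threshold.

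At the probe that stands for each gene, WT replicate 2 was the highest of the 6 arrays for 6 of the 9 genes (Has1, Has2, Cd44, Tnfaip6, Vcan and Hmmr) and the lowest for Hyal1 and Hyal2. Over all genes tested it was highest for 21.9% and lowest for 18.5%. WT replicate 1 was the lowest array for Has1, Has2, Cd44, Tnfaip6 and Vcan at these probes. At other probes the lowest array was FoxO1 +/- replicate 2 for Cd44 (levels of -1.26 and -1.82 at 2 probes) and FoxO1 +/- replicate 1 for Vcan (1.05 at 1 probe). Leaving out WT replicate 2 turned the sign of 7 of the 9 differences, giving 0.25 for Has1, 0.18 for Cd44, 0.13 for Vcan, 0.04 each for Has3, Tnfaip6 and Hmmr, and -0.02 for Hyal2, with a median of 0.04. Leaving out WT replicate 1 gave -0.98 for Has1 and -0.44 for Cd44, with a median of -0.19. None of the 9 passed the adjusted threshold in either case.

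**Figure D4:**
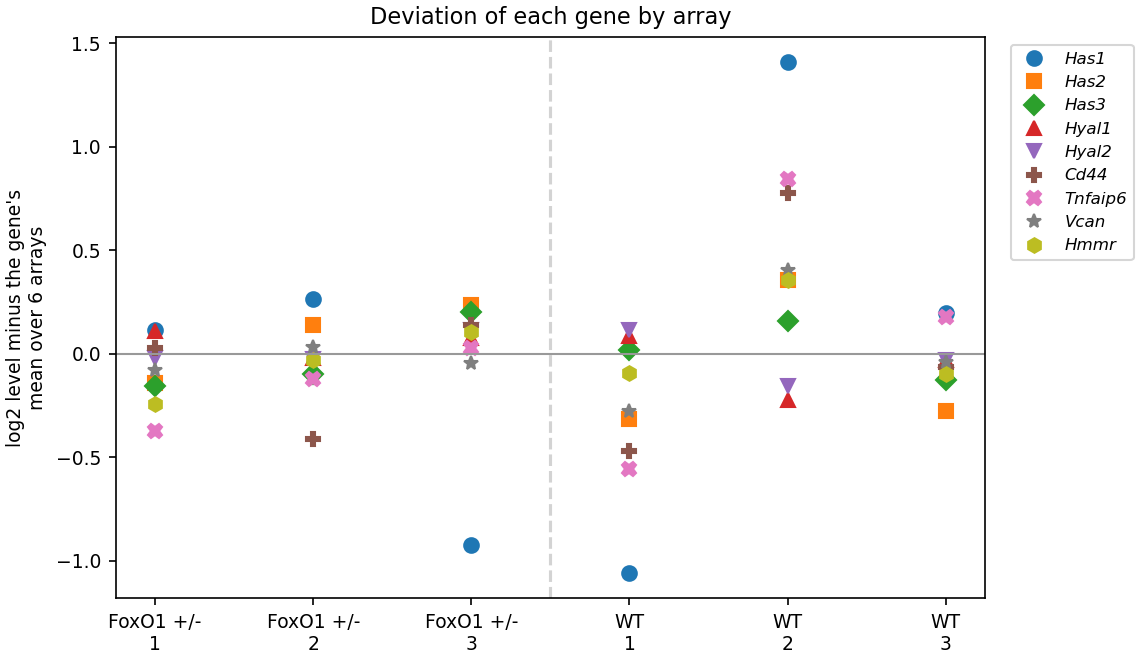
Deviation of each array from the mean of all 6 arrays, in log2 units, for the 9 hyaluronan genes, with FoxO1 +/- arrays before WT arrays. WT replicate 2 lies above the rest for 6 genes and below them for Hyal1 and Hyal2.

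Marker genes of other cell types also varied between arrays, and none of them passed a limma adjusted p of 0.05 between genotypes. All 10 adipocyte markers had the higher mean in FoxO1 +/- wounds. Of these, 5 had an unadjusted limma p under 0.05, beside 3.42% of all genes called higher, and 6 showed no overlap, beside 11.5%. Adipocyte markers summed to 382, 420 and 501 on the FoxO1 +/- arrays, against 339, 166 and 298 on the WT arrays, and 9 of the 10 were lowest on WT replicate 2. Of 9 measured neutrophil markers, 7 had the higher mean in FoxO1 +/- wounds and 2 the lower. Only Camp had an unadjusted limma p under 0.05 (log2 difference 0.70, adjusted p = 0.776), beside 3.42% of all genes called higher. It was also the only 1 without overlap, beside 11.5%. Neutrophil markers summed to 636, 592 and 781 on the FoxO1 +/- arrays, against 546, 773 and 588 on the WT arrays. S100a9 and S100a8 weighed most in these sums, and 7 of the 9 markers were lowest on WT replicate 1. All 9 measured sebaceous gland markers had the lower mean in FoxO1 +/- wounds. Of these, 3 had an unadjusted limma p under 0.05, beside 2.83% of all genes called lower, and 3 showed no overlap, beside 11.5%. Sebaceous gland markers summed to 67.5, 67.5 and 71.1 on the FoxO1 +/- arrays, against 166.8, 87.4 and 168.9 on the WT arrays. Each measured marker of these 3 lists was well above background on every array, and their part in the hyaluronan results was not tested.

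The arrays that were high for one gene were compared with those of 138 measured genes of the pathway and marker lists, to name the gene whose levels ran most alike over the 6 arrays. These are Pearson correlations over 6 arrays that share their normalisation, given as a description. The highest of 138 correlations over 6 arrays can be high without any link between the genes. Values without 2 arrays rest on fewer arrays and on pairs already chosen, so they are no test of a link. For Has1 the most alike gene was Uap1, which makes UDP-N-acetylglucosamine, with r = 0.987, and r = 0.973 without WT replicates 1 and 2. Uap1 stood at 4.23, 4.37 and 3.94 on the FoxO1 +/- arrays, against 3.98, 4.69 and 4.27 on the WT arrays, and Gfpt2 came second with r = 0.975. The arrays formed 3 separate clumps on the Has1 axis, WT replicate 1 with FoxO1 +/- replicate 3, then 3 middle arrays, then WT replicate 2 alone. Hyal2 ran the opposite way over the same clumps, a pair chosen after its values were seen, and no correlation is given for it.

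**Figure D5:**
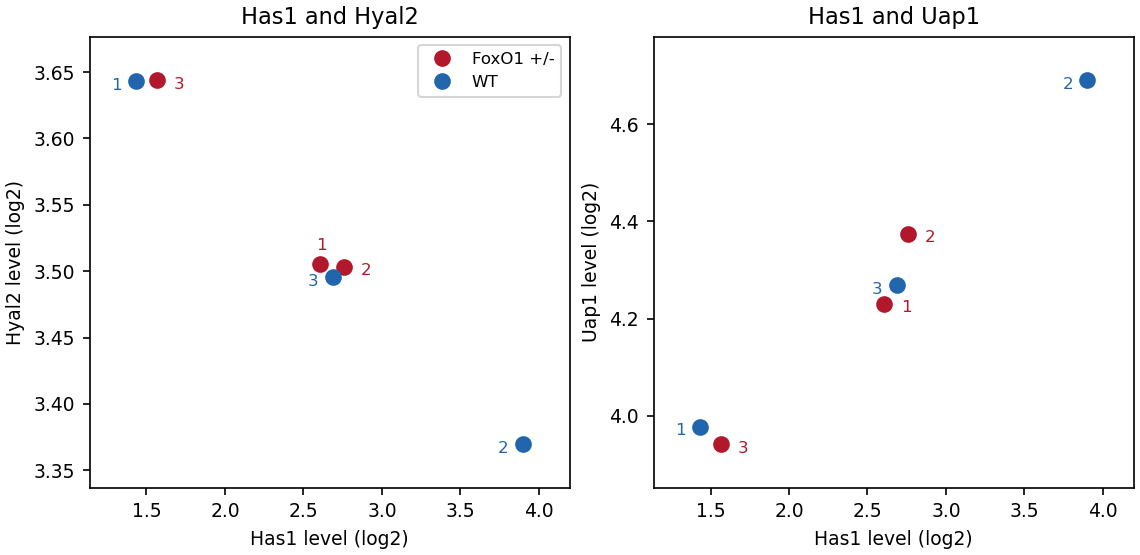
Level of Has1 on each array (log2 relative to the 75th percentile) against Hyal2 on the left and Uap1 on the right, in red for FoxO1 +/- and blue for WT, numbered by replicate. In both panels WT replicate 1 lies beside FoxO1 +/- replicate 3, and WT replicate 2 stands alone with Has1 at 3.90.

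For Has2 the most alike gene was Spp1, the Cd44 ligand osteopontin (r = 0.953, and 0.925 without the 2 arrays farthest from the median of Has2). For Has3 it was Cdk1, a mitotic kinase (r = 0.981, and 0.935 without the farthest 2). For Hmmr it was Pgm3 of the hexosamine pathway (r = 0.985, and 0.912 without the farthest 2). For Hyal2 it was Krt10, a keratin of differentiating epidermis (r = 0.896, and 0.970 without the farthest 2). Cd44 and Tnfaip6 both ran closest to Cxcr2, a chemokine receptor of neutrophils, with r = 0.945 for Cd44 and 0.923 for Tnfaip6. Without WT replicates 1 and 2 these were 0.791 for Cd44 and 0.475 for Tnfaip6. Spearman rank correlations with Cxcr2 over all 6 arrays were 0.829 for Cd44 and 0.943 for Tnfaip6. Vcan ran closest to Ugp2 of precursor supply (r = 0.921) and Hyal1 to the adipocyte gene Cfd (r = 0.895), and without the farthest 2 arrays these were -0.53 and 0.443.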

How the data were processed

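Each deposited scanner file gives an intensity per spot, which the authors extracted with Agilent Feature Extraction 10.7.1.1 per the file headers, while the submitters' processing notes name version 9.1. Processed signals were background-subtracted within an array, per the file headers. The value table that the authors deposited gave this processed intensity too, linear and uncentred, within 0.5%, with column medians of 97.2, 98.9 and 82.4 for FoxO1 +/- and 99.8, 103 and 112 for WT. All arrays lay on 1 slide and in 1 scan.

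From the deposited intensity, log2 values were computed here, with outlier spots left out, spots of a probe averaged and each array's 75th percentile subtracted. Of 28094 probes with a RefSeq accession, 26564 matched a symbol (GRCm38.p6 table, whereas the array design cites mm9, so no probe coordinates are given). Probes well above background on all 3 arrays of at least 1 genotype were kept (37902), and the brightest stood for its gene. FoxO1 +/- minus WT was fitted by two-sided limma 3.58.1 in R 4.3.3 (lmFit, then eBayes), with Benjamini-Hochberg adjustment over 16411 genes, or over kept probes for Foxo1. The number of arrays limits the precision. The fit was tested on simulated data. Members and gene lists were chosen with earlier results of these data known. Named were all 9 members, list genes with an unadjusted p under 0.05 and the next 2 by p, and for each member the gene most alike. Alternatives covered background correction, scaling, filters, probe choice, slide row, the replicate number, left-out arrays and the authors' table. The files have no mean signal, so normexp used the median signal.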

Additional observations from a re-analysis of the deposited data

How the results depend on the processing

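No setting brought any of the 9 hyaluronan genes past a limma adjusted p of 0.05. The count over all genes, 1 as reported, was 0 with normexp, 2 with quantile normalization, 5 with median scaling, 3 with no filter on dim probes and 0 with only probes well above background on all 6 arrays. It was 7 with slide row as a block, 4 in slide row 1 alone and 0 to 28 when 1 array was left out, with 28 without WT replicate 2. Has3 turned to 0.0547 with normexp, and Has2 to -0.0650 with slide row as a block and in slide row 1 alone. Both gave -0.07 for Has1, -0.17 for Has3, 0.17 for Hyal1, 0.0024 for Hyal2, -0.05 for Cd44, -0.53 for Tnfaip6, -0.11 for Vcan and -0.30 for Hmmr. Row 1 holds all WT arrays and FoxO1 +/- replicate 1, and row 2 holds FoxO1 +/- replicates 2 and 3, so these fits rest on FoxO1 +/- replicate 1 alone, assumed to vary like the other arrays. With 1 array left out, log2 differences ran from -0.98 to 0.25 for Has1, 0.04 to 0.37 for Has2, -0.14 to 0.0374 for Has3, 0.03 to 0.18 for Hyal1, -0.0185 to 0.12 for Hyal2, -0.44 to 0.18 for Cd44, -0.66 to 0.0356 for Tnfaip6, -0.21 to 0.13 for Vcan, -0.19 to 0.0385 for Hmmr and -0.35 to 0.0077 for Ugdh. The members' median ran from -0.19 to 0.04. The cause of these changes was not tested. Arrays of the same number did not deviate together (r = -0.07, -0.14 and -0.30), beside -0.12 to 0.24 for arrays of unlike number. Deviations from a mean of 3 arrays constrain each other, so these values cannot decide whether the numbers pair the samples. A replicate block, which cannot move mean differences in this balanced design, gave 0 genes past the threshold. The mean of all kept probes and the authors' table turned no member's sign. The median over all genes stayed between -0.02 and 0.03 in all settings.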
